A study of Rattus norvegicus with 14 samples.

Results

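The respiratory chain and the ATP synthase, the machinery of oxidative phosphorylation, were examined at the level of their nuclear-encoded messenger RNAs in rat hippocampal CA3. Members were the probe sets whose platform annotation named a single gene with a symbol of the Ndufa, Ndufb, Ndufc, Ndufs, Ndufv, Uqcr or Atp5 series, the 4 Sdh genes, Cyc1, or a numbered subunit of the Cox4 to Cox8 series. These were 89 probe sets for 84 genes, of 15923 probe sets on the array and 10411 genes that had a probe set of their own. By symbol, 41 genes belonged to complex I, 4 to complex II, 8 to complex III, 15 to complex IV and 16 to complex V, the ATP synthase. Each gene was represented by its brightest probe set, by mean over all arrays. A further 7 probe sets named a member together with a second gene and were left out. The symbols of all 84 genes were unchanged in the RefSeq gene table of assembly GRCr8.

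Total RNA was measured on 14 Affymetrix RAE230A arrays, 1 per animal, from microdissected CA3 of male Long-Evans rats 3 to 4 months old, 7 in each group. All animals had first been trained in the standard water maze and, 2 to 3 weeks later, swam 8 trials at 8 min intervals in an unfamiliar maze with a visible platform. In the learning group spatial cues were present and the platform stayed where it was, whereas in the control group the platform moved between trials and no orienting cues were given, so that cues and platform movement cannot be told apart from learning. All rats swam a 90 s probe trial without a platform 1 h after the last trial and were killed directly afterwards, which means that the controls share the swimming, the handling and the earlier training. The question set by the series title is whether information taken up within 1 session changes CA3 messenger RNAs. Values are GCRMA expression levels on a log2 scale. The labels do not say that same-numbered animals of the groups belong together.

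Oxidative phosphorylation moves electrons from NADH and succinate through complexes I to IV to oxygen, and the proton gradient that complexes I, III and IV build drives ATP synthesis by complex V. Complexes I, III, IV and V hold subunits from the mitochondrial as well as the nuclear genome, and complex II is wholly nuclear-encoded. Neurons draw most of their ATP from this pathway, much of it to restore ion gradients after synaptic currents. Subunits encoded by mitochondrial DNA are not analysed here.

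Correlations between arrays ran from 0.983 to 0.995 and no columns were identical. Control replicates 5, 3 and 1 agreed least with the other arrays of their own group, and the members' values are also given without them. Marker genes of the cell types in and around CA3 were averaged where their mean log2 level reached 3.88, the cutoff for dim probe sets. Two-sided exact permutation tests over 3432 assignments were made on 13 measures in all. The spike-in level was 0.20 higher in learning arrays (exact p = 0.00524, adjusted p = 0.0341). On the log2 scale, the Gapdh 3'/5' ratio was 0.45 ± 0.05 in learning against 0.51 ± 0.06 in control arrays (SD, n = 7 each, exact p = 0.0443, adjusted p = 0.115). CA3 pyramidal markers were above the cutoff in 6 of 6 and higher by 0.12 (exact p = 0.0332, adjusted p = 0.108). Of 7 measured choroid plexus markers 2 were above the cutoff, Ttr and Igfbp2, and their mean ran from 6.50 to 8.71 in control and from 5.33 to 6.55 in learning arrays (exact p = 0.00175, adjusted p = 0.0227). The 4 endothelial markers above the cutoff averaged -0.19 (exact p = 0.0117, adjusted p = 0.0505). The means of microglial (-0.14), dentate (-0.15, 2 of 5 measured markers above the cutoff), oligodendrocyte (-0.10), CA1 (-0.055), astrocyte (-0.0066) and interneuron markers (0.0014) had exact p-values between 0.0932 and 0.990. Gene by gene, 6 of 7 astrocyte markers (median log2 fold change -0.059) and 6 of 7 interneuron markers (median -0.12) lay below 0. A single marker in each list stood well above 0, Slc1a2 at 0.45 and Gad2 at 0.76. Their limma adjusted p-values were 0.0858 and 0.110, at mean log2 levels of only 5.85 and 4.83. Below 0 also lay 5 of 6 oligodendrocyte markers (median -0.095) and 5 of 6 microglial markers (median -0.099). The same held for 4 of 4 endothelial (median -0.15) and 3 of 4 CA1 markers (median -0.079). Of the CA3 markers, 1 of 6 lay below 0 (median 0.059). Neurod2 (0.33, limma adjusted p = 0.0818) and Spock1 (0.28, adjusted p = 0.0257) were the highest of these. The other CA3 markers ran from -0.015 to 0.087. Markers of other cell types thus mostly had the sign that most members had. So did 63.9% of the 6836 genes tested at their brightest probe set, and these shares were not compared by a test. The part of these measures in the members' values was not tested.

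Most members had slightly lower levels in the learning group, and 2 of them fell. Of 84 genes, 79 passed the filter on dim probe sets (a mean log2 level of at least 3.88), and 69 of these 79 had a log2 fold change (learning minus control) below 0. Ndufv1 of complex I (-0.23) and Atp5mf of complex V (-0.19) fell at an adjusted p under 0.05 in limma, 0 members rose, and 77 did not pass. The median over the 79 genes was -0.059, a decrease of 3.99%, against -0.027 over the 6836 genes tested at their brightest probe set. The share of members called, 2 of 79, is near that of all genes, of which 2.57% were called (0.98% lower and 1.59% higher); over all 9520 probe sets tested it was 3.35%. Below 0 lay 87.3% of the members and 63.9% of all genes, a difference in share that was not tested. In tissue RNA, a smaller share of a cell type and less RNA per cell cannot be told apart.

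At an unadjusted p under 0.05, 22 of the 79 members were lower and 0 were higher, where 12.3% of all genes were lower and 6.33% higher. Of the 22, 15 belonged to complex I (of 41 tested), 2 to complex III (of 8) and 5 to complex V (of 16). In 25 members all 7 learning animals lay under the control mean. The share of all genes with that pattern was not computed, so this count cannot be read as particular to the members. In Ndufa12 alone did the 2 groups not overlap, a pattern seen in the lower direction in 0.453% of all genes. Spread between animals was small against most of the microarray's range, with a median SD of 0.071 in control and 0.063 in learning animals and a median SE of the difference of 0.040. The median difference of the members was thus close to the spread of a single group.

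**Figure D1:**
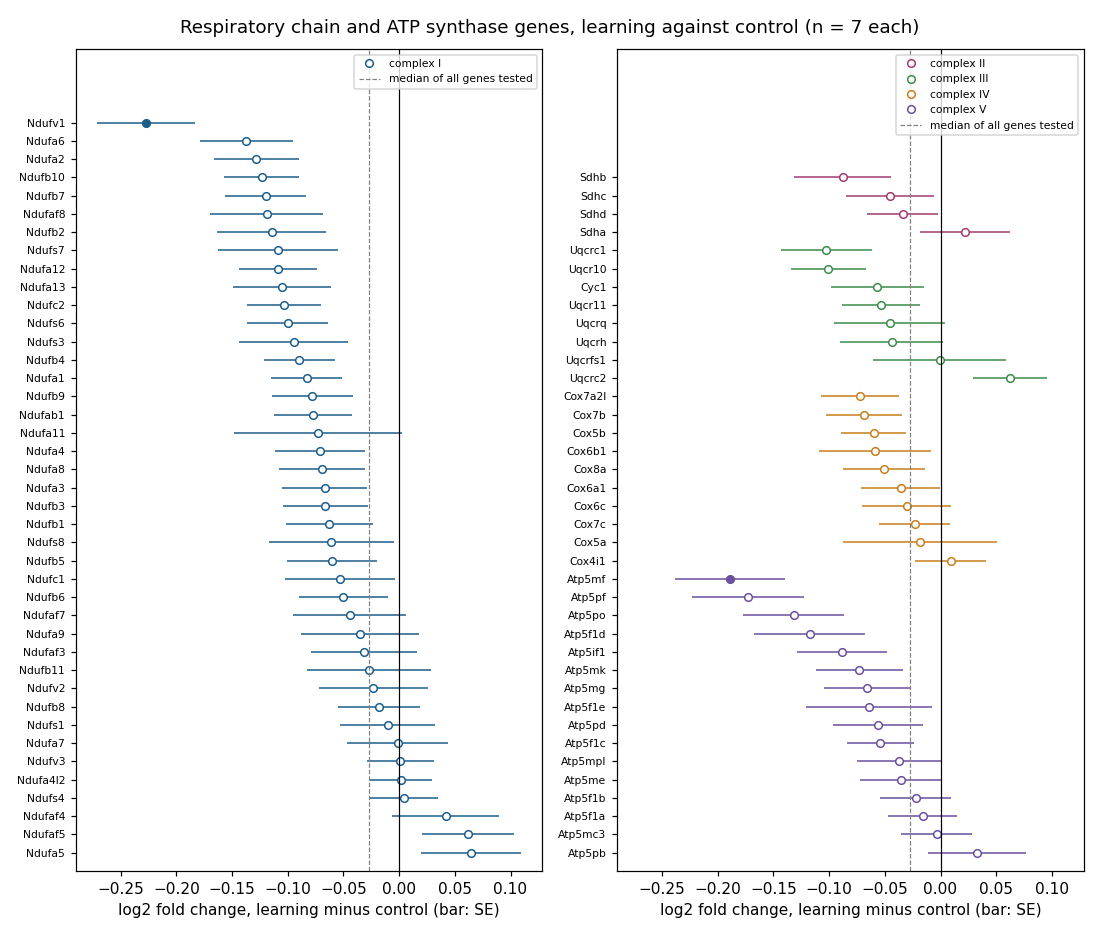
Log2 fold change (learning minus control, x axis) with its SE for the 79 genes tested, complex I on the left and complexes II to V on the right, 7 animals per group. Filled points passed the adjusted threshold (Ndufv1 and Atp5mf), open points did not, the dashed line is the median of all genes tested (-0.027), and 69 of the 79 points lie left of 0.

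Genes of like level were set beside the members. Most members were bright, with 50 of the 79 at a mean log2 level of 10 or above. These 50 had a median fold change of -0.066 and 46 of them lay below 0, whereas all 695 genes of that level, the members included, had a median of -0.021 and 60.9% below 0. Between levels of 9 and 10, 13 of 13 members lay below 0 (median -0.063) beside 65.7% of 715 genes (median -0.031). The few dimmer members stood nearer 0. Between levels of 8 and 9, 6 of 8 members lay below 0 (median -0.034) beside 65.6% of 1189 genes (median -0.032). Between levels of 6 and 8, 3 of 6 members lay below 0 (median -0.0069) beside 65.9% of 2509 genes (median -0.034). The assembly factors Ndufaf4, Ndufaf5 and Ndufaf8 were among those 6. These are descriptions of a list whose selection was made with earlier results of the same arrays known, and no test over the list was made.

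**Figure D2:**
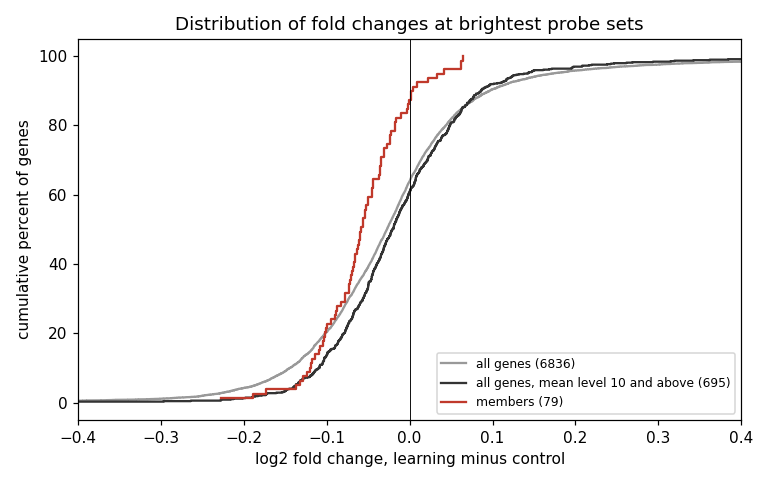
Cumulative percent of genes (y axis) against log2 fold change, learning minus control (x axis), for the 79 members, for all 6836 genes and for the 695 genes with a mean log2 level of 10 or above; the x axis ends at -0.4 and 0.4. The members' curve crosses 0 at 87.3%, that of all genes at 63.9% and that of the bright genes at 60.9%.

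Promoter sequences are shown for Ndufv1 and Atp5mf, the 2 genes that fell, and for Atp5pf of the ATP synthase and Uqcrc2 of complex III, as a gene near the threshold and the complex III gene with the highest fold change. They are the 250 bases before the annotated start, 5′ to 3′, from RefSeq, assembly GRCr8. Capitals mark matches, on either strand, to short strings of factors known to bind promoters of this pathway: GCGCATGC for NRF1, CCGGAAG for ETS factors such as GABP, and AAGATGGC for YY1.
Ndufv1, chr1:210734892-210735141, minus strand: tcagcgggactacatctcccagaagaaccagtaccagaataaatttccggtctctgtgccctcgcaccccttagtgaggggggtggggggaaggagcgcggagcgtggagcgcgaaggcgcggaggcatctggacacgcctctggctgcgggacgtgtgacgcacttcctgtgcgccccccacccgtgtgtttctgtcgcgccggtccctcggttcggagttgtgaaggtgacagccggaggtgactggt
Atp5mf, chr12:14535185-14535434, plus strand: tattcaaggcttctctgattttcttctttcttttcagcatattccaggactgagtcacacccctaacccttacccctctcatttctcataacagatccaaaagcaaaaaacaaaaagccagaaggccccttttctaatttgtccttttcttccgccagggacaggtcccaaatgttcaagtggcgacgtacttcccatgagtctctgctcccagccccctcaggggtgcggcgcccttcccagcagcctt
Atp5pf, chr11:37375102-37375351, minus strand: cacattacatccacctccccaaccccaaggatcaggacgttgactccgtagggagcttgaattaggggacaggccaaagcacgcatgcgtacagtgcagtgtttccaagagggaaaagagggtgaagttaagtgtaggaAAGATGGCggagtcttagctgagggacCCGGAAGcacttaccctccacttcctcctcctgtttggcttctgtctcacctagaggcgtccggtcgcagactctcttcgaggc
Uqcrc2, chr1:184598990-184599239, plus strand: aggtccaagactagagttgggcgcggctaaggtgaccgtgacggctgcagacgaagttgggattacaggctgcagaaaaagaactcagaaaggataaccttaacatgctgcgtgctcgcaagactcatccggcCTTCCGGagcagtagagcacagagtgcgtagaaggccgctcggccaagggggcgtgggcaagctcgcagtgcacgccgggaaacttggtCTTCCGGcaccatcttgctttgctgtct

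None of these strings was found in the windows of Ndufv1 and Atp5mf. Atp5pf held the YY1 and the ETS string, and Uqcrc2 held the ETS string at 2 places. A sequence was matched for 76 of the 84 members. The ETS string stood in 20 of these 76 windows (26.3%) and in 7.27% of the 33469 windows of the whole table, and the NRF1 string stood in 9 (11.8%) and in 2.20%. The YY1 string stood in 2 windows (2.63%) and in 1.63%. A match is a description of letters, not of binding, and the shares were not compared with the fold changes.

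Complex I, the NADH dehydrogenase, carries FMN and a chain of iron-sulfur clusters in its peripheral arm and pumps protons through its membrane arm. All 41 of its genes passed the filter, 35 lay below 0, and the median was -0.067. Ndufv1, the flavoprotein that binds NADH and FMN where electrons enter, had a lowest, median and highest log2 level of 10.15, 10.29 and 10.43 in control animals and 9.97, 10.04 and 10.17 in learning animals. Of the 7 learning animals 6 lay under the lowest control animal, and 1 overlapped. Its promoter is the first of the 4 printed sequences. Means were 10.28 ± 0.09 and 10.05 ± 0.06 (SD, n = 7 each), and Ndufv1 fell by 14.6% (log2 fold change -0.23, SE 0.044, limma adjusted p = 0.0128). The call of Ndufv1 held without each array in turn (adjusted p between 0.00983 and 0.0321) and was lost with the Gapdh 3'/5' ratio (adjusted p = 0.0706) or the spike-in level (adjusted p = 0.0775) as covariate, at fold changes of -0.24 and -0.21.

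The other 5 core subunits of the peripheral arm that were measured did not pass. Among them, Ndufs7, which holds the last iron-sulfur cluster before ubiquinone, had -0.11, Ndufs3 had -0.095, Ndufs8 -0.061 and Ndufv2 -0.023. Ndufs1, the subunit with the most iron-sulfur clusters, ran from 9.31 to 9.53 in control and from 9.31 to 9.51 in learning animals, with medians of 9.44 and 9.39. The groups thus covered the same range (fold change -0.010, SE 0.043, adjusted p = 0.920). The difference between Ndufv1 and Ndufs1 was not tested.

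Accessory subunits, which surround the catalytic core, made up most of complex I, and 26 of 29 had a fold change below 0 (median -0.071). Ndufb10, a subunit of the membrane arm, had lowest, median and highest levels of 10.36, 10.43 and 10.50 in control and 10.24, 10.31 and 10.36 in learning animals. All but 1 learning animal lay below every control animal (fold change -0.12, SE 0.034, adjusted p = 0.0573), and it passed in 5 of 29 alternatives, over which the adjusted p ran from 0.0325 to 0.214. Ndufa2 of the NADH-binding module (-0.13), Ndufb7 of the intermembrane-space face (-0.12) and Ndufa6, which binds the mitochondrial acyl carrier protein (-0.14), had adjusted p-values of 0.0820, 0.0858 and 0.0863.

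Ndufa12, an accessory subunit of the peripheral arm, is given because its groups did not overlap and was chosen after its values were seen. It ran from 10.10 to 10.19 (median 10.12) in control and from 9.90 to 10.09 (median 10.06) in learning animals. Every learning animal was thus below every control animal, by little at the boundary, and the adjusted p was 0.105 (fold change -0.11, SE 0.035). Ndufa1, a small membrane-arm subunit, was tightly grouped in control animals, from 12.08 to 12.12, and 6 of 7 learning animals lay below that range (lowest 11.92, median 12.04, highest 12.10, fold change -0.083, adjusted p = 0.163). Ndufb9 had -0.078 (adjusted p = 0.251).

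Few complex I genes went the other way. Ndufa5, an accessory subunit of the peripheral arm, had the highest fold change of the complex at 0.065 (SE 0.045, adjusted p = 0.449), with levels from 8.65 to 8.89 in control and from 8.72 to 8.92 in learning animals. Overlap was nearly complete. Among the 5 assembly factors named Ndufaf, which are not part of the finished enzyme, 3 lay below 0 and 2 above, with a median of -0.031, from -0.12 for Ndufaf8 to 0.062 for Ndufaf5, and 0 passed. Ndufa4 (-0.071), listed here by its symbol, is now regarded as a subunit of complex IV.

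**Figure D3:**
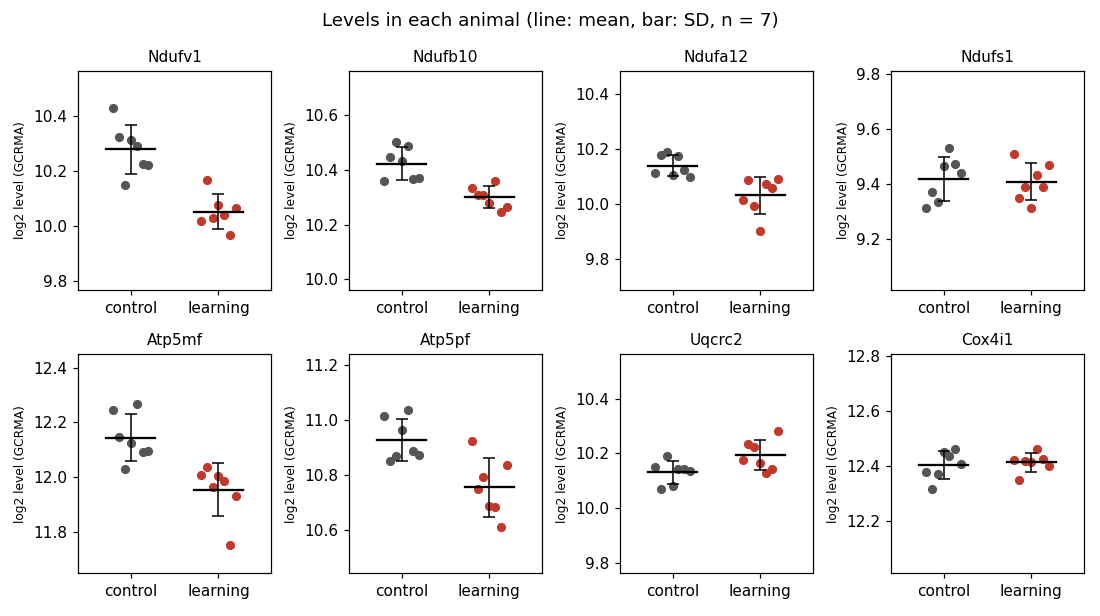
Log2 level (y axis) of 8 members in each control animal (grey) and learning animal (red), with the mean as a line and the SD as a bar, n = 7 per group, on axes that each span the same number of log2 units and do not start at 0. In Ndufa12 the groups are apart, in Ndufv1, Ndufb10, Atp5mf and Atp5pf 6 of 7 learning animals lie under the lowest control animal, and in Ndufs1 and Cox4i1 the groups cover the same range.

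Complex II, succinate dehydrogenase, also works in the citric acid cycle. None of its 4 genes passed (3 below 0, median -0.040). Sdhb, the iron-sulfur subunit, ran from 10.21 to 10.41 (median 10.33) in control and from 10.09 to 10.32 (median 10.25) in learning animals, and the groups overlapped (fold change -0.088, SE 0.043, adjusted p = 0.278). Sdha, the flavoprotein that oxidises succinate, had 0.022 (SE 0.041, adjusted p = 0.813). The membrane anchors Sdhc and Sdhd had -0.045 and -0.034, and the dimmer probe set of Sdhd had 0.057. The direction of Sdhd therefore differed between its own probe sets, neither of which passed.

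Complex III passes electrons from ubiquinol to cytochrome c. Of 8 genes 7 lay below 0 (median -0.050), 2 of them at an unadjusted p under 0.05, and none passed. Uqcrc1 and Uqcrc2, the paired core proteins, had opposite signs. Uqcrc1 ran from 10.46 to 10.63 (median 10.48) in control and from 10.26 to 10.48 (median 10.41) in learning animals, with 5 learning animals below the control range (fold change -0.10, SE 0.041, adjusted p = 0.174). Uqcrc2 ran from 10.07 to 10.19 (median 10.14) in control and from 10.13 to 10.28 (median 10.18) in learning animals, where 6 of 7 lay above the control mean (fold change 0.062, SE 0.033, adjusted p = 0.318). Neither passed, and the difference between them was not tested.

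Neither of the measured complex III subunits that carry redox groups passed. The cytochrome c1 gene Cyc1 had -0.057 (SE 0.042, adjusted p = 0.476), and Uqcrfs1, the Rieske iron-sulfur protein, had -0.00091 (SE 0.060, adjusted p = 0.995). Among the small subunits, Uqcr10 had -0.10 (SE 0.033, adjusted p = 0.110), from 10.80 to 10.92 in control and from 10.66 to 10.82 in learning animals, and Uqcr11 had -0.054 (adjusted p = 0.417). All 4 small subunits lay below 0.

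Complex IV, cytochrome c oxidase, reduces oxygen to water, and several of its nuclear subunits exist as isoforms from separate genes. Of its 15 genes, 5 lay below the dim cutoff and were not tested: Cox4i2, known from lung, Cox6a2, Cox7a1 and Cox8b, known from heart and skeletal muscle, and Cox6b2, known from testis. Their mean log2 levels lay between 2.17 (Cox4i2) and 2.82 (Cox7a1), and no animal of either group reached the cutoff of 3.88. The isoforms found in most tissues, Cox4i1, Cox6a1, Cox6b1 and Cox8a, were above the cutoff in every animal. The detected and the dim isoforms were the same in both groups. Values of different probe sets are not set against each other, since probes differ in affinity.

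**Figure D4:**
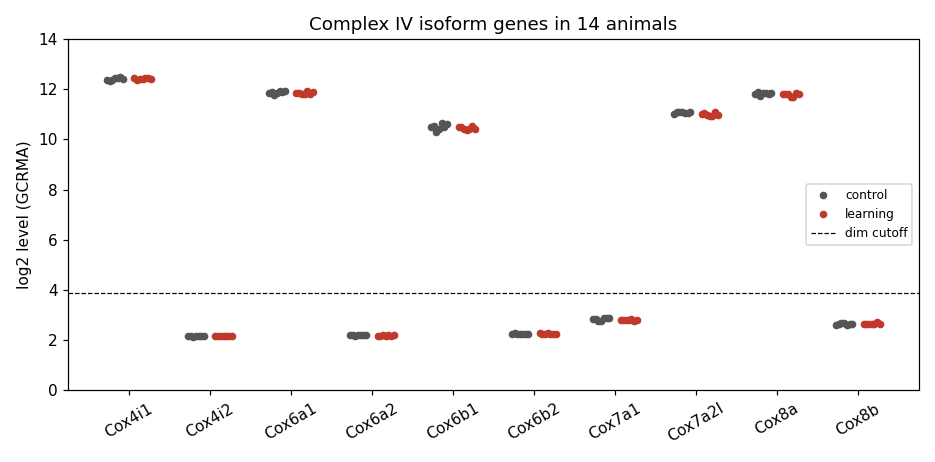
Log2 level (y axis) of 10 complex IV genes in each control animal (grey) and learning animal (red), with the dim cutoff of 3.88 as a dashed line. Cox4i2, Cox6a2, Cox6b2, Cox7a1 and Cox8b lie below it in all 14 animals, and heights of different genes cannot be compared.

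The 10 complex IV genes tested had a median fold change of -0.043, the range was from -0.072 to 0.0090, and 0 of them reached an unadjusted p under 0.05. Cox7a2l, a protein that joins complexes III and IV into supercomplexes, had the lowest value (-0.072, SE 0.035, adjusted p = 0.265), followed by Cox7b (-0.069, adjusted p = 0.281) and Cox5b (-0.060, adjusted p = 0.263). In Cox5b and Cox7b all 7 learning animals lay under the control mean. Cox8a and Cox6c had -0.051 and -0.031 and did not pass. Cox4i1, the subunit through which ATP inhibits the enzyme, ran from 12.32 to 12.46 in control and from 12.35 to 12.46 in learning animals (medians 12.41 and 12.42, fold change 0.0090, adjusted p = 0.907). Cox5a had -0.018 at a probe set of moderate signal (mean level 6.69, SE 0.069, adjusted p = 0.915), the widest spread of the complex.

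Complex V makes ATP in its F1 head, which is held by a peripheral stalk to a membrane part with a rotating ring. Of 16 genes 15 lay below 0 (median -0.060). Atp5mf, the membrane subunit f, had lowest, median and highest log2 levels of 12.03, 12.13 and 12.27 in control and 11.75, 11.99 and 12.04 in learning animals. All but 1 learning animal lay below the control range, and learning replicate 6 was the lowest by a wide gap. Means were 12.14 ± 0.09 and 11.95 ± 0.10 (SD, n = 7 each), and Atp5mf fell by 12.3% (fold change -0.19, SE 0.049, limma adjusted p = 0.0493). This call lay at the threshold and held in 5 of 29 alternatives, whose adjusted p ran from 0.0311 to 0.193. Without learning replicate 6 it was lost (fold change -0.16, adjusted p = 0.0756), and of the 14 fits that leave out an array it held in 1, that without learning replicate 2.

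The 4 genes of the peripheral stalk ran from -0.17 to 0.033. Atp5pf, the coupling factor F6 of the stalk, ran from 10.85 to 11.04 (median 10.89) in control and from 10.61 to 10.92 (median 10.75) in learning animals. Here too 6 of 7 learning animals were below all controls (fold change -0.17, SE 0.050, adjusted p = 0.0724). Atp5po, the protein at the top of the stalk, had -0.13 (SE 0.045, adjusted p = 0.121) and Atp5pd -0.056 (adjusted p = 0.464). Atp5pb, the stalk's membrane-anchored subunit b, had 0.033 (SE 0.044, adjusted p = 0.729), from 10.86 to 11.06 in control and from 10.88 to 11.12 in learning animals. It was the only complex V gene above 0.

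The catalytic subunits of the F1 head stood near 0. Atp5f1b, the subunit that holds the catalytic sites, ran from 12.26 to 12.38 in control and from 12.23 to 12.37 in learning animals (fold change -0.022, SE 0.032, adjusted p = 0.748), and its partner Atp5f1a had -0.016 (SE 0.031, adjusted p = 0.822). The central stalk genes Atp5f1c and Atp5f1d had -0.054 (adjusted p = 0.341) and -0.12 (SE 0.050, adjusted p = 0.203). Atp5mc3, which codes for the ring subunit c, had -0.0035 (SE 0.032, adjusted p = 0.966). Atp5if1, the inhibitor that blocks reverse rotation, had -0.088 (SE 0.040, adjusted p = 0.238) at its brightest probe set and 0.013 at a dimmer one. The differences between these parts of complex V were not tested.

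The mean over the members was then taken in each animal. Each gene was first set relative to its control mean, and the mean over all 79 then ran from -0.032 to 0.068 in control and from -0.10 to -0.028 in learning animals, with 6 of 7 learning animals below the lowest control. For complex I the ranges were -0.036 to 0.071 and -0.11 to -0.027, for complex V -0.029 to 0.080 and -0.11 to -0.037, and in complex V all 7 learning animals were below all controls. The ranges overlapped more in complexes II (-0.032 to 0.048 and -0.15 to 0.016), III (-0.033 to 0.073 and -0.086 to 0.00060) and IV (-0.069 to 0.059 and -0.076 to -0.017). Over the 695 genes of level 10 and above the same mean differed less, by -0.011, yet it too was lower in all 7 learning animals than in any control. The mean over all 6836 genes differed by -0.021 and was likewise lower in all 7 learning animals than in any control. Whether the complexes differed from each other was not tested.

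**Figure D5:**
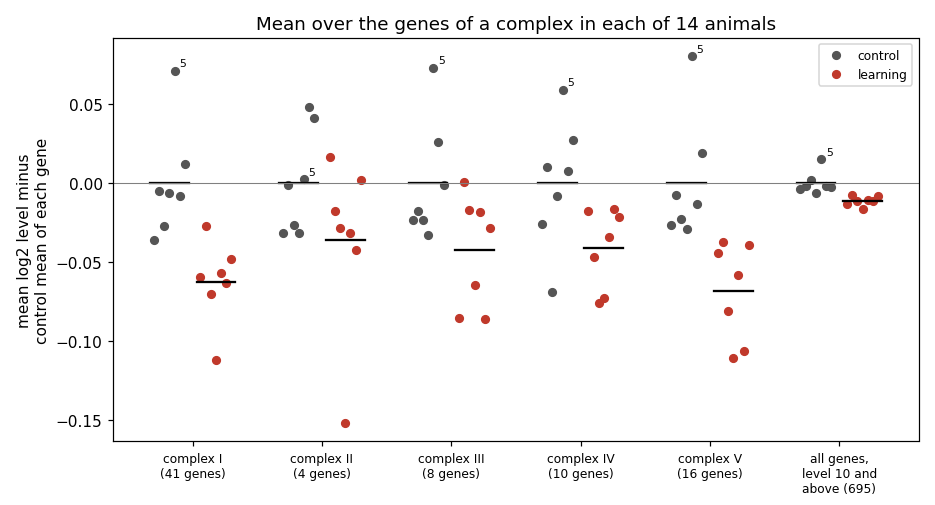
Mean over the tested genes of each complex, and over 695 genes of level 10 and above, in each of 14 animals, each gene relative to its control mean (y axis, log2); grey points are control and red points learning animals, lines are group means, and 5 marks control replicate 5. Control replicate 5 is the highest animal for complexes I, III, IV and V, and the groups do not overlap in complex V and in the bright genes.

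Control replicate 5 was the highest animal in 4 of these 5 complexes, at 0.071 in complex I and 0.080 in complex V. It also had the highest 3'/5' signal ratio of all arrays for Gapdh, hexokinase and beta-actin (0.64, 2.57 and 1.65 on the log2 scale), control probe sets that read RNA integrity and amplification length. Without this animal the median over the members was -0.045 and that of all genes -0.021, 65 of 79 members lay below 0, and 15 members (19.0%) and 10.4% of all genes were lower at an unadjusted p under 0.05. With the Gapdh ratio as covariate the members' median was -0.028, that of all genes -0.018, 70.9% of the members and 58.4% of all genes lay below 0, and 0 members were called. At an unadjusted p under 0.05, 12 members (15.2%) and 7.86% of all genes were lower in that fit. The part of RNA quality in the members' differences was not tested beyond these values. Without the 3 arrays that agreed least with their own group (control replicates 5, 3 and 1) the members' median was -0.059 and 69 members lay below 0. Only Ndufv1 was called. All genes had a median of -0.022 there, with 60.7% below 0. At an unadjusted p under 0.05, 16 members (20.3%) and 7.87% of all genes were lower in that fit.

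Within groups, pairs of members also varied together, with a median Pearson r of 0.17 over 3081 pairs and 14 arrays after removal of the group means, against 0.010 for all pairs of genes of level 10 and above. Without control replicate 5 the members' value was 0.090 and that of the bright genes 0.0048. The pairs share arrays and animals, so these are descriptions. Complex II had a median r of 0.33 over its 6 pairs, and 0.33 without control replicate 5. That animal was not extreme for complex II (mean 0.0024). Learning replicate 4, far from the others there at -0.15, was kept each time, and its part in this r was not tested.

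Genes around the respiratory chain, from lists chosen for their place in the same metabolism, gave medians nearer 0 than the -0.059 of the members. All genes tested had a median of -0.027 and 63.9% below 0. Levels were unlike for some lists, with a median level of 7.48 for the assembly factors and 10.45 for the members. Of 27 tested assembly factors beyond the Ndufaf genes, 18 lay below 0 (median -0.036) and 0 passed, among them Atpaf1, a chaperone of the F1 head, at -0.13 (adjusted p = 0.160) and the copper chaperones Cox19 and Cox17 at -0.13 and -0.094, and Uqcc2, an assembly factor of complex III, at -0.067. Of 11 electron carrier genes 8 lay below 0 (median -0.037) and 0 passed. They included Etfb of the electron transfer flavoprotein at -0.037, Coq9 of ubiquinone synthesis at -0.17 (adjusted p = 0.0989) and, above 0, the glycerol phosphate dehydrogenase Gpd2 at 0.17 (adjusted p = 0.0753). Of 15 genes of pyruvate dehydrogenase and the citric acid cycle 10 lay below 0 (median -0.044) and 0 passed, with -0.23 for Idh2 and -0.18 for Ogdh (adjusted p = 0.0557 for each), 0.061 for citrate synthase Cs and 0.045 for Pdha1.

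ATP export stood near 0. Of 11 tested genes of carriers and ATP export 7 lay below 0 (median -0.015) and 0 passed, with -0.043 for the ADP/ATP carrier Slc25a4, -0.041 for the phosphate carrier Slc25a3 and 0.12 for the outer-membrane channel Vdac1 (adjusted p = 0.110). The glutamate carrier Slc25a22 had -0.086. Of 14 glycolysis genes 11 lay below 0 (median -0.038) and 1 fell: Ldhb, a lactate dehydrogenase subunit, at -0.15 (SE 0.039, adjusted p = 0.0468). Of all genes tested at their brightest probe set, 2.57% were called. The 3 glycolysis genes above 0 were Ldha, also of lactate dehydrogenase (0.076, SE 0.033, adjusted p = 0.207), Pgam1 (0.053) and Pgk1 (0.017). Eno2, the neuronal enolase, had -0.14 (adjusted p = 0.143), Aldoa -0.025 and Tpi1 -0.068. Of 6 measured regulators of mitochondrial gene transcription 3 were above the cutoff (Gabpb1, Esrra and Tfam, at -0.040, -0.024 and -0.048, none passing). Ppargc1a, the coactivator of mitochondrial biogenesis, was below the cutoff, and so were Yy1 and Polrmt. The difference between these lists and the respiratory chain genes was not tested.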

How the data were processed

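The deposited values are log2 expression levels that the authors made with GCRMA, a background correction by probe sequence with normalization between arrays, per the submitters' processing notes. The sources used here give neither its version nor its settings. That they are log2 values was judged from how far they extend. GCRMA compresses differences near background. Groups and replicate numbers came from the sample titles, which call the samples biological replicates. Genes were named from the platform annotation, in which 12789 probe sets had 1 gene, 312 several and 2771 were not listed.

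The 57 control probe sets and 6346 dim ones (mean below the 40th percentile, 3.88) were left out. For the other 9520, learning was compared with control without covariates in limma (version 3.58.1, functions lmFit and eBayes, R 4.3.3), with Benjamini-Hochberg adjustment over the 9520 and a threshold of 0.05. Adjusted p-values in the text come from this fit unless a permutation test or an alternative is named. Medians and counts over members are descriptions. The members and gene lists were chosen with earlier results of these data known. Named genes were the called members, in each complex the 4 of lowest p, the 2 brightest and the extreme fold changes, and a fixed set of core subunits; other members named were chosen after their values were seen. From the other lists, called members, the 2 of lowest p and the 2 brightest were to be named, and further ones were added after their values were seen.

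Alternatives were 3 other dim filters, trended and robust moderation of the variance, weights per array, scaling between arrays by quantiles or by the median, a block for replicate numbers, 4 covariates, leaving out each array or the 3 least typical ones, averaging or exchanging a gene's probe sets, updated symbols, and structural subunits only. The counts at an unadjusted p under each alternative and the correlations without control replicate 5 were added after seeing the data. The procedure was tested on simulated data, in which probe sets vary independently. It recovered 6% of changes of 0.1 log2 units, 34% of 0.2, 82% of 0.4 and 98% of 1, with 50 changes of each size. The changed probe sets were drawn from all 9520, so these rates are not those of the members alone. Of the calls, 5.98% were false. A member that did not pass is thus not shown to be unchanged. The number of arrays limits the precision.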

Additional observations from a re-analysis of the deposited data

Results flagged for a closer look

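In all, 3 groups of 7 animals held an animal far from the others, of 80 looked at, where chance alone gives about 1 in 20. Uqcrc1 stood at 10.63 in control replicate 5, with the other controls between 10.46 and 10.50. Atp5mf stood at 11.75 in learning replicate 6, with the others between 11.93 and 12.04. The mean over complex II genes, relative to the controls, stood at -0.15 in learning replicate 4, with the others between -0.042 and 0.016.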

How the results depend on the processing

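Of the members, 2 were called. With robust moderation, array weights, median centring, the hexokinase ratio or the dentate markers as covariate, or without the 3 arrays that stood apart, 1 was called, Ndufv1 in each. With the Gapdh ratio or the spike-in level as covariate 0 were called in limma, and under each 12 (15.2%) were lower at an unadjusted p under 0.05, beside 7.86% of all genes with the Gapdh ratio and 9.58% with the spike-in level. Leaving out each array gave 1 to 2. The 60th percentile filter, the variance trend and quantile normalization gave 3 each. At an unadjusted p under 0.05 in limma, 27.3%, 34.2% and 26.6% of the members were lower under these. Of all genes, 14.2%, 12.5% and 12.2% were. The share of all genes called in each alternative fit is not set beside these counts, so they cannot be read as particular to the members. The replicate number as a block gave 1, Ndufv1; the correlations of same-numbered deviations ran from -0.16 to 0.13, so the numbers were not taken as pairs. The call of Atp5mf was lost under the block (adjusted p = 0.0576).

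Over all probe sets, 319 calls became 158 without the dim filter, 66 without the 3 arrays and, by covariate, 39 (Gapdh ratio), 177 (hexokinase ratio), 143 (spike-in) and 163 (dentate markers). The members' median ran from -0.066 to -0.045 and the share below 0 from 82.3% to 89.9% when each array was left out. With the Gapdh ratio the median was -0.028, and that of complex IV -0.0095. The cause was not tested.

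Signs turned in 32 of 987 pairs of gene and alternative, in 8 named genes, none called and none larger than 0.034 in size. Ndufs1 was 0.049 with the Gapdh and 0.013 with the hexokinase ratio, and -0.028 to 0.0084 with an array left out. Sdha was -0.0072 without the 3 arrays. Sdhd was 0.012 as the mean of its probe sets and 0.057 at the dimmer one. Uqcrfs1 was 0.0017 after median centring, 0.019 without the 3 arrays, 0.093 with spike-in and 0.0072 with hexokinase as covariate, and -0.031 to 0.041 with an array left out. Cox4i1 ran from -0.0057 to 0.020 and Cox5a from -0.054 to 0.026 with an array left out, and Cox5a was 0.021 with the Gapdh ratio. Cox6c was 0.031 with the Gapdh ratio and 0.0039 without the 3 arrays. Atp5mc3 was 0.0036 with array weights, 0.014 after quantile normalization, 0.011, 0.016 and 0.0047 with the Gapdh, hexokinase and dentate covariates and 0.024 without the 3 arrays, and -0.014 to 0.014 with an array left out. Values near background have only compressed differences, and 5 members there were not tested.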
